A study of Mus musculus with 20 samples.

Results

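Nodal, Gdf3, Tdgf1, Lefty1, Lefty2 and Cer1 make up the extracellular module through which Nodal signals are sent, received and limited. They were followed across mouse embryonic stem cells exposed to combinations of developmental signals. The 6 genes were taken by symbol from the 27998 genes of the single-cell matrices, and all 6 were also present in the bulk table. The cells were 129P2/OlaHsd male embryonic stem cells, grown with LIF, GSK3 inhibitor XV and UO126, which were withdrawn before differentiation. Wells were tagged with transfected barcodelets (short synthetic RNAs that name the well) and pooled for droplet RNA sequencing. In the germ layer experiment, 32 populations received every combination of 5 signals for 24 h, each at a level called plus (activated) or minus (inhibited). RA was retinoic acid against CD 2665, Wnt was GSK3 inhibitor XV against IWR1, Tgfb was Activin A against A8301, Bmp was Bmp4 against Dorsomorphin, and Fgf was Fgf2 against UO126. Activin A and A8301 act on the receptors that Nodal uses, so that the Tgfb level is the setting of the Nodal pathway itself. In the mesendoderm experiment, cells were held for 24 h with Tgfb, Wnt and Fgf activated (Activin A, GSK3 inhibitor XV, Fgf2) and RA and Bmp inhibited (CD 2665, Dorsomorphin). They then received combinations of 7 signals for 24 h, with Notch and Shh added, in 384 wells. The mixed experiment had 144 wells that began undirected or from the same mesendoderm treatment, including 8 control wells per start that received no combinatorial treatment. For these last experiments the tables do not say which compounds stand behind plus and minus. Bulk libraries came from untransfected cells, from cells 24 h and 72 h after barcodelet transfection, and from flow-sorted populations labelled Foxa2GFPplus, Foxa2GFPminus and Tdgf1GFPplus. The labels do not describe how the GFP reporters were built.

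Nodal is a TGF-beta family ligand that, like Activin, acts through type I and type II activin receptors and the transcription factors Smad2 and Smad3. Unlike Activin, it needs a membrane-bound co-receptor, Tdgf1 (Cripto). Gdf3 is a related ligand that also uses the co-receptor. Lefty1 and Lefty2 are secreted antagonists that bind Nodal and its co-receptor, and Cer1 (Cerberus) is a secreted antagonist that binds Nodal and BMP ligands. Nodal, Lefty1 and Lefty2 are textbook targets of the pathway itself, so the module holds both a positive and a negative feedback arm. In the embryo it maintains the epiblast, patterns the primitive streak and sets up the left-right axis.

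The 6 genes lie on 5 chromosomes of GRCm38 and none overlaps another annotated gene. Nodal spans chr10:61417972-61425338 on the plus strand, Gdf3 spans chr6:122605403-122610087 on the minus strand, and Tdgf1 spans chr9:110939603-110946158 on the minus strand. Cer1 spans chr4:82881751-82885148 on the minus strand. Lefty2 (chr1:180893108-180899103) and Lefty1 (chr1:180935022-180938400) lie on the plus strand with 35918 bases between them. Their longest transcripts were 82.8% identical over 1556 aligned bases, but 1 of the 441 60-base windows in the last 500 bases of Lefty1 also occurred in Lefty2. The pair can therefore be counted apart in most 3′ reads.

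RefSeq promoter sequences (GRCm38.p6) were given for 3 of the 6 genes. The 250 bases before the start are shown for Tdgf1 and Nodal, the co-receptor and the ligand that both moved with the Tgfb level. Capitals mark matches to CAGAC (a SMAD-binding core) and AATNNACA (the core bound by FOXH1, the Smad partner), searched on both strands together with CTTTGAT (TCF) and AGGTCA (the core of retinoic acid receptor sites).
Tdgf1 promoter, chr9:110946159-110946408, minus strand: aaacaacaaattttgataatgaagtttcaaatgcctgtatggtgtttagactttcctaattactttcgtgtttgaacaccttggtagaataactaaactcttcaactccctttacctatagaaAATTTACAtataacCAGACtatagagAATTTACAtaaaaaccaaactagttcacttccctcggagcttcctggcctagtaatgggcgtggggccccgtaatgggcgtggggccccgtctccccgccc
Nodal promoter, chr10:61417722-61417971, plus strand: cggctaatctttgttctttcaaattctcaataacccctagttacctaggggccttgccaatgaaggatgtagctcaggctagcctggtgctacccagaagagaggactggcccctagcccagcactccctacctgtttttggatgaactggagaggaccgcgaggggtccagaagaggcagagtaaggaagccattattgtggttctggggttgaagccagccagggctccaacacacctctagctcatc
The Tdgf1 window held 1 CAGAC, 113 to 109 bases before the start, between a pair of AATTTACA matches at 127 to 120 and 101 to 94 bases before it. The Nodal window held none of the 4 motifs, and the Cer1 window held 1 CAGAC. Over all 32851 promoters of this length, 42.2% held CAGAC, 10.9% held AATNNACA, 3.21% held CTTTGAT and 14.02% held AGGTCA. These matches describe letters and not bound sites.

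Cells assigned to a population by the authors numbered 4350 in the germ layer experiment, 2899 in the mesendoderm experiment and 4869 in the mixed experiment. Their UMI counts (distinct RNA molecules) were summed per population. Totals ran from 991630 to 3816595 UMIs per germ layer condition, from 27701 to 332644 per mesendoderm well with at least 5 cells (300 wells) and from 101140 to 2119355 per mixed well (142 wells). The experiments shared 64 to 151 cell barcodes pairwise, at most 1.87% of the smaller set. Bulk libraries held 2899646 to 14874469 reads. Each germ layer condition was 1 population and nothing says that wells came from separate cultures, so p-values measure the spread between these populations. In the germ layer experiment that spread is what the fitted model leaves over, including any dependence between signals that it does not hold. All 6 general pluripotency markers were detected in the germ layer populations, with Pou5f1 at 65.5 to 553 CPM (the usual per-library rate of counts, here after TMM scaling). A lower level in a population cannot be told apart from fewer expressing cells.

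The ligand Nodal followed the Tgfb level without exception in the germ layer experiment. Nodal stood at 16.6 CPM in the lowest, 29.7 CPM in the median and 49.1 CPM in the highest of the 16 Tgfb plus conditions. In the 16 Tgfb minus conditions Nodal ran from 3.89 through a median of 7.27 to 11.2 CPM. The groups did not overlap, and Nodal was higher in all 16 pairs of conditions that differed in Tgfb alone. The share of all genes that did either was not counted, here or for the other members and experiments below. The log2 change of Nodal was 2.01 ± 0.106 (SE; adjusted p = 8.37e-16, edgeR quasi-likelihood test over 10614 genes). By this test 7.02% of all genes changed with Tgfb, 4.07% upward, against 4 of the 5 members tested, all upward. The other 4 signals moved Nodal by less. Nodal fell by 0.37 ± 0.102 with Bmp (adjusted p = 0.00314) and by 0.34 ± 0.102 with Wnt (adjusted p = 0.0135). It rose by 0.31 ± 0.103 with RA (adjusted p = 0.0208). This call was lost without the 10% of cells with most UMIs (0.25, adjusted p = 0.105) and with products of the signals in the model (0.18, adjusted p = 0.171). The 3 highest Nodal conditions all had RA plus, Tgfb plus and Bmp minus. Within that combination the 4 Nodal levels ran from 30.4 to 49.1 CPM, overlapping the 23.0 to 37.1 CPM of the 4 conditions with Bmp plus instead.

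The second ligand, Gdf3, did not follow Tgfb in this way. Gdf3 stood at 15.0, 27.7 and 46.6 CPM (lowest, median, highest) with Tgfb plus and at 6.39, 24.7 and 55.7 CPM with Tgfb minus. The ranges overlapped almost wholly, although Gdf3 was higher with Tgfb in 13 of 16 matched pairs. The log2 change was 0.32 ± 0.132 and missed the threshold (adjusted p = 0.154). It passed with products of the signals in the model (0.35, adjusted p = 0.0283). Gdf3 instead fell with RA (-0.54 ± 0.133, adjusted p = 0.00203), Wnt (-0.66 ± 0.133, adjusted p = 0.00027) and Bmp (-0.61 ± 0.133, adjusted p = 0.000323). These are signals that changed many genes: 27.7% of all genes tested passed with RA, 23.9% with Wnt and 43.1% with Bmp. The highest Gdf3 level, 55.7 CPM, was that of the condition with all 5 signals at minus.

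The co-receptor Tdgf1 rose with Tgfb and fell with RA by nearly the same amount. With Tgfb plus, Tdgf1 stood at 6.44, 48.9 and 283 CPM (lowest, median, highest of 16), and with Tgfb minus at 5.19, 12.1 and 46.8 CPM. Of the Tgfb plus conditions, 8 lay above every Tgfb minus condition and the rest overlapped them. The log2 change was 2.33 ± 0.234 (adjusted p = 7.04e-09), and Tdgf1 was higher in all 16 matched pairs. By RA level, Tdgf1 stood at 5.19, 10.6 and 60.7 CPM with plus and at 6.99, 40.6 and 283 CPM with minus, a log2 change of -2.34 ± 0.229 (adjusted p = 1.04e-09). It was lower with RA in 14 of 16 matched pairs. Tdgf1 also fell with Wnt (-1.04 ± 0.223, adjusted p = 0.000601) and with Bmp (-0.84 ± 0.222, adjusted p = 0.00237), and rose with Fgf (0.94 ± 0.225, adjusted p = 0.00731). The Bmp and Fgf calls were lost in DESeq2 (adjusted p = 0.0896 and 0.0825). Tdgf1 was the only member called with Fgf, where 7.93% of all genes passed.

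Levels of Tdgf1 were thus highest where RA was minus and Tgfb plus. The 4 conditions with RA minus, Tgfb plus and Bmp minus averaged 221 ± 77.4 CPM (SD, n = 4). With Bmp plus in their place, the 4 conditions ran from 10.6 to 239 CPM, and with RA plus and Bmp minus from 6.44 to 60.7 CPM. The lowest Tdgf1 of the first set was 114 CPM, above all 4 of the last set. The signals that moved Tdgf1 also moved markers of cell state. Of 6 general pluripotency markers, 4 fell and none rose with RA. Their summed level was 316, 542 and 786 CPM (lowest, median, highest) with RA plus and 485, 810 and 1350 CPM with RA minus. Of 6 tested primitive streak markers, all fell with RA and all rose with Tgfb. None of 4 tested visceral endoderm markers changed with RA. The part of cell state in the Tdgf1 and Gdf3 changes was not tested.

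**Figure D1:**
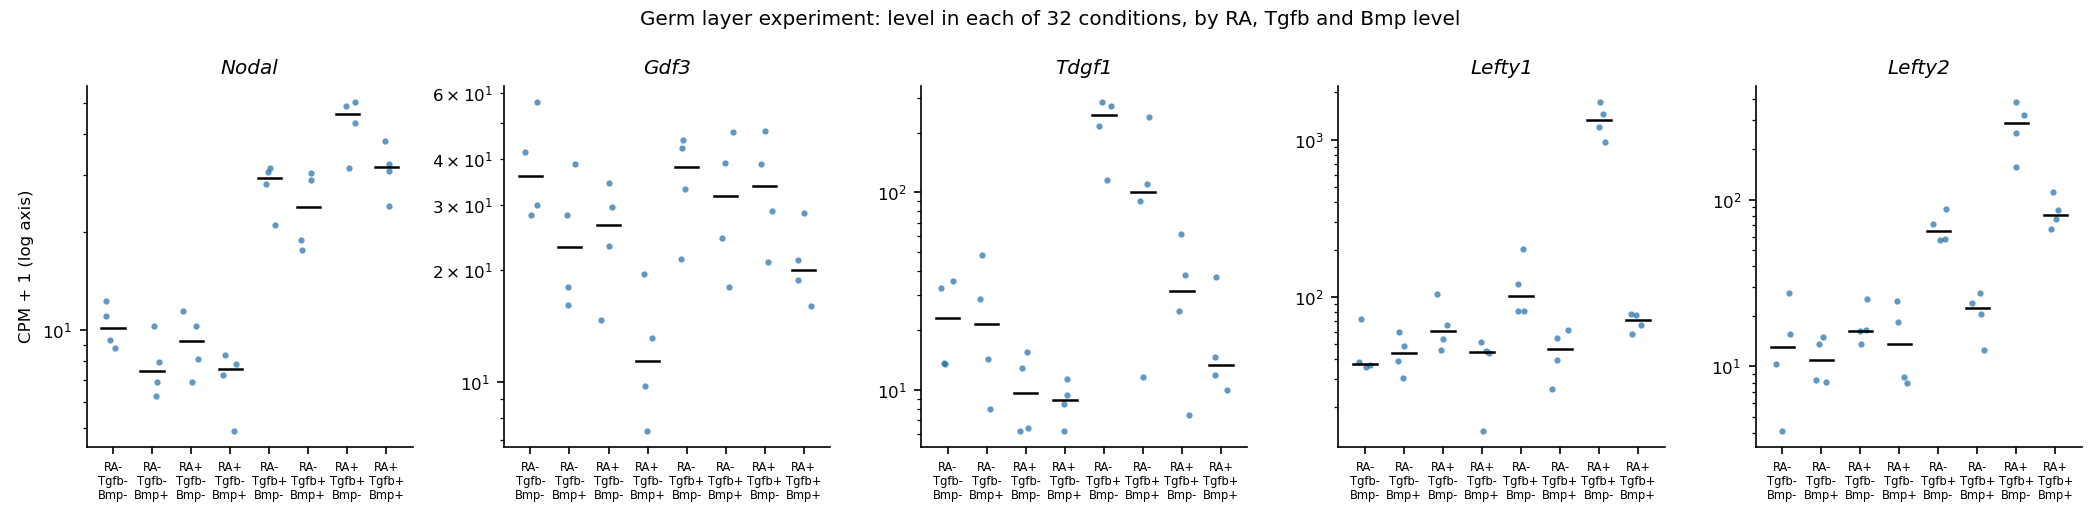
Levels of Nodal, Gdf3, Tdgf1, Lefty1 and Lefty2 in the 32 germ layer conditions, as CPM + 1 on a log axis, in 8 groups by RA, Tgfb and Bmp level; each dot is 1 condition (4 per group, differing in Wnt and Fgf) and each bar a median. Lefty1 reaches 964 to 1726 CPM in the group with RA plus, Tgfb plus and Bmp minus and no more than 201 CPM elsewhere.

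The inhibitors Lefty1 and Lefty2 rose with Tgfb on average over the other signals, but their levels depended on RA and Bmp at the same time. Lefty2 stood at 11.5, 72.6 and 381 CPM (lowest, median, highest of 16) with Tgfb plus and at 3.11, 13.3 and 26.7 CPM with Tgfb minus. Of the Tgfb plus conditions, 12 lay above every Tgfb minus condition. Lefty2 changed by 2.80 ± 0.235 (adjusted p = 1.27e-10) and was higher in 15 of 16 matched pairs. Lefty1 stood at 25.0, 78.6 and 1726 CPM with Tgfb plus and at 13.0, 44.3 and 104 CPM with Tgfb minus, with 6 conditions above the Tgfb minus range. Its log2 change was 2.15 ± 0.405 (adjusted p = 0.000439), and Lefty1 was higher in 13 and lower in 3 of 16 matched pairs. With RA minus and Bmp plus, Lefty1 averaged 44.4 ± 15.9 CPM with Tgfb plus and 43.6 ± 12.7 CPM with Tgfb minus (SD, n = 4 each). Both inhibitors rose with RA (Lefty1 by 1.66 ± 0.398, adjusted p = 0.0017; Lefty2 by 1.55 ± 0.225, adjusted p = 2.31e-06). Both fell with Bmp (Lefty1 -2.12 ± 0.405, adjusted p = 6.34e-05; Lefty2 -1.34 ± 0.219, adjusted p = 6.89e-06). Across the 5 signals, 18 of 25 member effects passed. Of all genes tested, 7.02% passed with Tgfb, 27.7% with RA, 43.1% with Bmp, 23.9% with Wnt and 7.93% with Fgf. The RA effects on both Leftys were opposite in sign to that on Tdgf1.

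In a single combination, RA plus with Tgfb plus and Bmp minus, Lefty1 stood far above all other conditions. Its 4 conditions read 964, 1203, 1452 and 1726 CPM, whatever the Wnt and Fgf levels, while no other condition passed 201 CPM. With RA minus in their place the mean was 120 ± 56.8 CPM (SD, n = 4), and with Bmp plus it was 68.9 ± 9.74 CPM (SD, n = 4). Lefty2 was also highest in this combination. Its 4 conditions read 155, 251, 321 and 381 CPM, above the 109 CPM of the next condition. With RA minus Lefty2 averaged 67.6 ± 14.5 CPM (SD, n = 4) and with Bmp plus 83.8 ± 18.8 CPM (SD, n = 4). For both inhibitors the combination did not overlap either neighbour. How many of all genes separated in this way was not counted.

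Products of signal pairs in the model gave the size of the pairwise dependences, each averaged over the other signals. A product of RA, Tgfb and Bmp together was not fitted. The Tgfb effect on Lefty1 was larger by 2.02 ± 0.299 log2 units where RA was plus (adjusted p = 0.000716), and on Lefty2 by 1.70 ± 0.281 (adjusted p = 0.00336). This product passed for 20 of 11410 genes, 0.175%. Where Bmp was plus, the Tgfb effect was smaller for Lefty1 (-2.67 ± 0.288, adjusted p = 9.82e-07) and for Lefty2 (-1.35 ± 0.266, adjusted p = 0.00298), in a comparison that 3.01% of genes passed. The RA effect on Lefty1 was likewise smaller where Bmp was plus (-2.07 ± 0.286, adjusted p = 2.37e-05; 3.01% of genes passed). No product passed for Nodal, Gdf3 or Tdgf1, so that 5 of 50 member products were called, all of them for the inhibitors. All 5 kept their call in each of the 5 alternatives run.

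**Figure D2:**
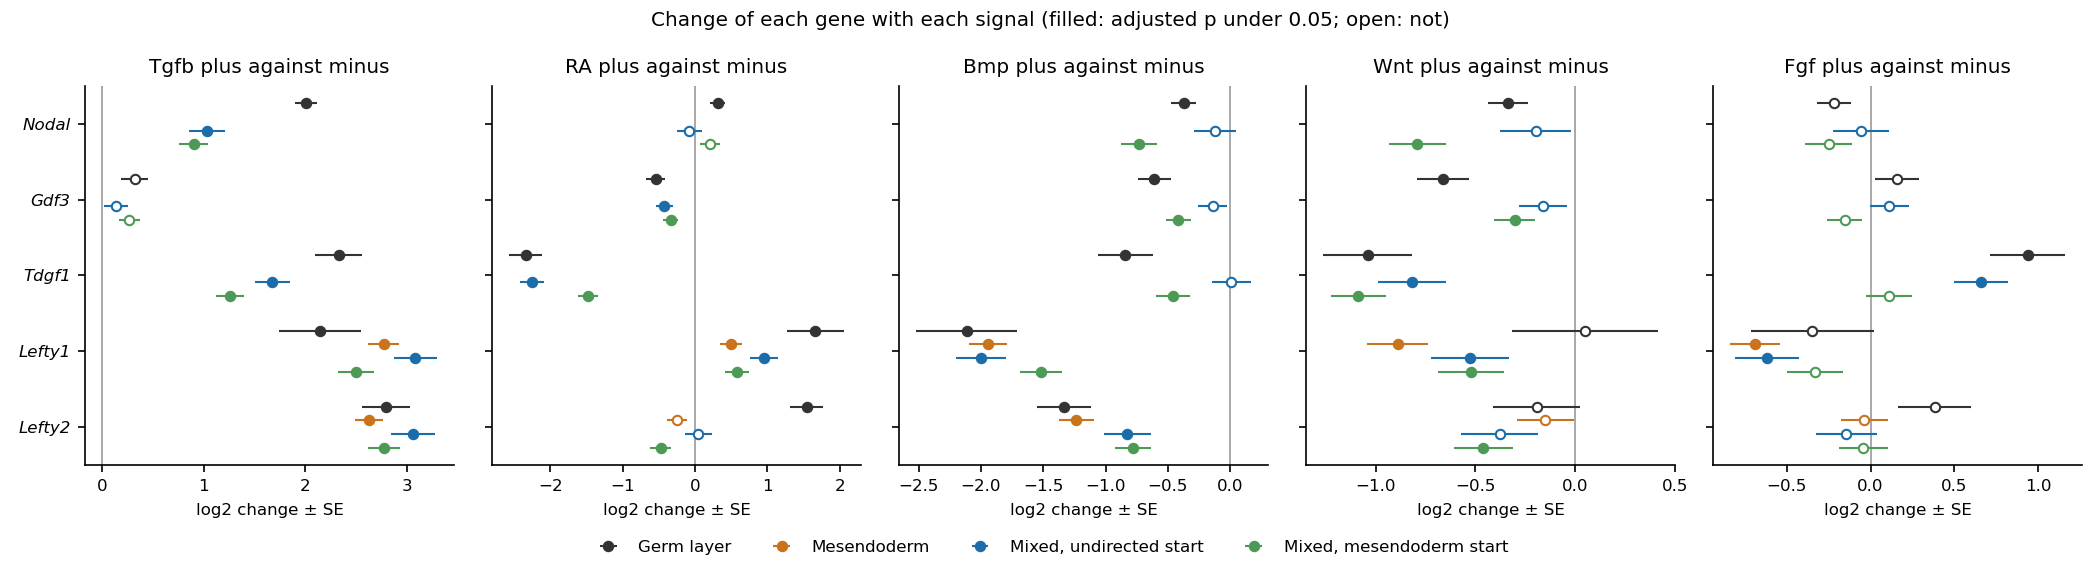
Fitted log2 change from minus to plus for each member and each of 5 signals, with standard errors; black marks the germ layer experiment, orange the mesendoderm experiment (Lefty1 and Lefty2 alone passed its count filter), blue and green the undirected and mesendoderm starts of the mixed experiment, and filled points an adjusted p under 0.05. In the Tgfb panel every tested effect on Nodal, Tdgf1, Lefty1 and Lefty2 is filled and above 0, between 0.90 for Nodal and 3.08 for Lefty1.

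Shares of cells with a UMI moved with the summed levels. In the germ layer experiment, 53.8% of 2252 Tgfb plus cells held a Lefty1 UMI, against 23.3% of 2098 Tgfb minus cells (exact 95% intervals 51.7 to 55.9% and 21.5 to 25.2%). The median depths were 15168.5 and 15591.5 UMIs, and after thinning cells to 5000 UMIs (89 and 76 shallower cells left out) the shares were 37.0% and 10.2%. Nodal was seen in 34.9% and 10.5% of these cells (14.3% and 3.68% when thinned), and Tdgf1 in 32.5% and 10.2% (20.9% and 4.47%). Gdf3 was seen in 29.1% and 23.5% (13.1% and 10.1%). With Tgfb plus and Bmp minus, 71.7% of 1103 cells held Lefty1 RNA. The single richest cell of that set held 122 UMIs and 383 cells held at least 10. Free RNA in droplets adds UMIs to cells that do not express a gene, and no cell type that should lack these genes was at hand to set its level. The intervals cover counting error only. Cer1 was found in 3 of 4350 cells and passed no count filter in the single-cell experiments.

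Lefty1 and Lefty2 RNA were found in the same cells. Among germ layer Tgfb plus cells, 61.2% of those with a Lefty1 UMI also held a Lefty2 UMI, against 25.1% of those without, and the share was higher in 15 of 16 populations. The median depths of these cells were 16085 and 14289 UMIs. In the mixed experiment the shares were 75.0% against 38.5% with the undirected start and 73.9% against 37.2% with the mesendoderm start, higher in 29 of the 29 populations of that start that could be compared. Median depths with and without a Lefty1 UMI were 19949 and 17638 UMIs with the undirected start and 20951 and 17659 UMIs with the mesendoderm start. Gdf3 and Tdgf1 showed the same pattern with the mesendoderm start: 63.8% of Tgfb plus cells with a Gdf3 UMI held Tdgf1, against 26.2% of those without. These cells differed more in depth, with medians of 22515 and 17404 UMIs. In the mesendoderm experiment the shares for Lefty2 were 70.7% and 38.0% with and without a Lefty1 UMI, higher in 10 of 15 populations, at median depths of 12439 and 10755 UMIs. Doublets within a population were not removed, and their part and that of depth in these shares were not tested. Across the 16 Tgfb plus populations of the germ layer experiment, Lefty1 and Lefty2 levels correlated with r = 0.83, and across the 16 Tgfb minus populations with r = -0.05. These populations share 1 library, and the values are descriptive.

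The mesendoderm experiment put the same signals on cells that had already been driven toward mesendoderm. Its wells were shallow, and only Lefty1 and Lefty2 passed the count filter among 2328 genes. Lefty1 stood at 0, 159 and 3050 CPM (lowest, median, highest) in 108 Tgfb plus wells and at 0, 16.0 and 461 CPM in 192 Tgfb minus wells. Lefty2 stood at 0, 184 and 1200 CPM with plus and at 0, 15.6 and 446 CPM with minus. The ranges overlapped from 0 upward, and 30 Tgfb plus wells exceeded every Tgfb minus well for Lefty1 and 11 for Lefty2. The log2 changes were 2.77 ± 0.149 for Lefty1 and 2.63 ± 0.141 for Lefty2 (adjusted p = 2.44e-49 for each), where 10.1% of genes passed. Both fell with Bmp (-1.94 ± 0.154, adjusted p = 1.78e-27, for Lefty1, and -1.23 ± 0.142, adjusted p = 1.14e-14, for Lefty2), with 29.3% of genes passing. These 4 calls held in all 13 alternatives.

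Lefty1 passed with further signals of the mesendoderm experiment and Lefty2 did not, a difference between the genes that was not tested. Lefty1 fell with Wnt (-0.89 ± 0.153, adjusted p = 1.74e-07; 39.6% of genes passed), whereas Lefty2 changed by -0.15 and missed the threshold (adjusted p = 0.423). Lefty1 also fell with Fgf (-0.69 ± 0.15, adjusted p = 0.000369, with 9.28% of genes passing). That call was lost without replicate 2 (-0.51, adjusted p = 0.118) and in wells with at least 10 cells (-0.86, adjusted p = 0.18). With RA, Lefty1 rose by 0.50 ± 0.151 (adjusted p = 0.00845; 21.9% of genes passed) and Lefty2 changed by -0.25 (adjusted p = 0.223). The RA call on Lefty1 was lost in 8 of 13 alternatives, with changes down to 0.13. Neither gene passed with Notch or Shh, for which 27 and 1 of all genes tested (1.16% and 0.043%) passed (188 and 167 at an unadjusted p under 0.05). In the pairwise model the RA effect was smaller where Wnt was plus for both inhibitors (Lefty1 -1.55 ± 0.295, adjusted p = 8.45e-05; Lefty2 -1.18 ± 0.277, adjusted p = 0.00297; 3.6% of genes passed). DESeq2 lost both of these (adjusted p = 0.0684 and 0.152), and the Lefty2 call was also lost without replicate 1 (-0.82, adjusted p = 0.306). Both were lost too in wells with at least 10 cells (adjusted p = 0.148 and 0.427). The Tgfb by Bmp product passed for Lefty1 (-1.30 ± 0.346, adjusted p = 0.0446; 0.487% of genes passed) but was lost when any 1 of the 4 replicates was left out.

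The combination that was highest for Lefty1 in the germ layer experiment was high here too, with less contrast. In the 26 wells with RA plus, Tgfb plus and Bmp minus, Lefty1 stood at 52.5, 569 and 3050 CPM (lowest, median, highest), and 10 of these wells exceeded the 810 CPM of the highest other well. The 25 wells with RA minus, Tgfb plus and Bmp minus stood at 90.6, 468 and 786 CPM. The ranges of these sets overlapped. Here the median with RA minus was close to that with RA plus, unlike in the germ layer experiment. For Lefty2 the median was higher with RA minus. Its wells stood at 0, 244 and 830 CPM with RA plus and at 54.6, 336 and 1200 CPM with RA minus, which overlapped, and its 3 highest conditions all had RA minus.

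Summing wells per condition brought Tdgf1 above the filter among 4619 genes. Tdgf1 then rose with Tgfb (1.77 ± 0.198, adjusted p = 3.89e-13; 7.38% of genes passed). It fell with RA (-2.06 ± 0.211, adjusted p = 2.03e-15; 16.4% passed), Wnt (-1.50 ± 0.206, adjusted p = 5.49e-10; 33.0% passed) and Bmp (-1.29 ± 0.200, adjusted p = 7.06e-08; 21.1% passed). With Fgf, where 5.22% of genes passed, Tdgf1 did not pass (adjusted p = 0.742). The 4 calls had the directions seen in the germ layer experiment. Nodal and Gdf3 stayed below the filter. Without it, Nodal rose with Tgfb (1.65 ± 0.173, adjusted p = 5.05e-16; 2.8% of 18974 genes passed) and fell with Wnt (-0.77 ± 0.177, adjusted p = 0.000357; 13.9% passed), and Gdf3 passed with none of the 7 signals. Pooled over wells and without TMM scaling, Nodal stood at 11.7 CPM with Tgfb plus (140 UMIs, 36 of 108 wells at 0) and at 2.95 CPM with Tgfb minus (61 UMIs, 144 of 192 wells at 0). Gdf3 stood at 9.12 and 8.02 CPM. Summed per condition, Nodal was higher with Tgfb in 52 and lower in 9 of 64 matched pairs of conditions, and Gdf3 in 33 and 27.

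Cer1, the antagonist shared between Nodal and BMP ligands, was near 0 in every single-cell experiment. It gave 3 UMIs in the germ layer experiment, 16 in the tested mesendoderm wells and 4 in the mixed experiment. The 16 mesendoderm UMIs came from 7 of 300 wells. All 16 were in wells with Wnt minus and Bmp minus, 14 in wells with RA minus and 13 in wells with Tgfb plus. The 4 UMIs of the mixed experiment came from 1 well, which had the mesendoderm start, RA minus, Wnt minus, Tgfb plus and Bmp minus. Without the count filter Cer1 passed in the mesendoderm experiment with RA, Wnt, Tgfb and Bmp (adjusted p = 0.0204, 7.25e-06, 0.00646 and 7.46e-06), where 7.27%, 13.9%, 2.8% and 7.6% of genes passed. These calls rest on the 16 UMIs above, and no level comparison was made.

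**Figure D3:**
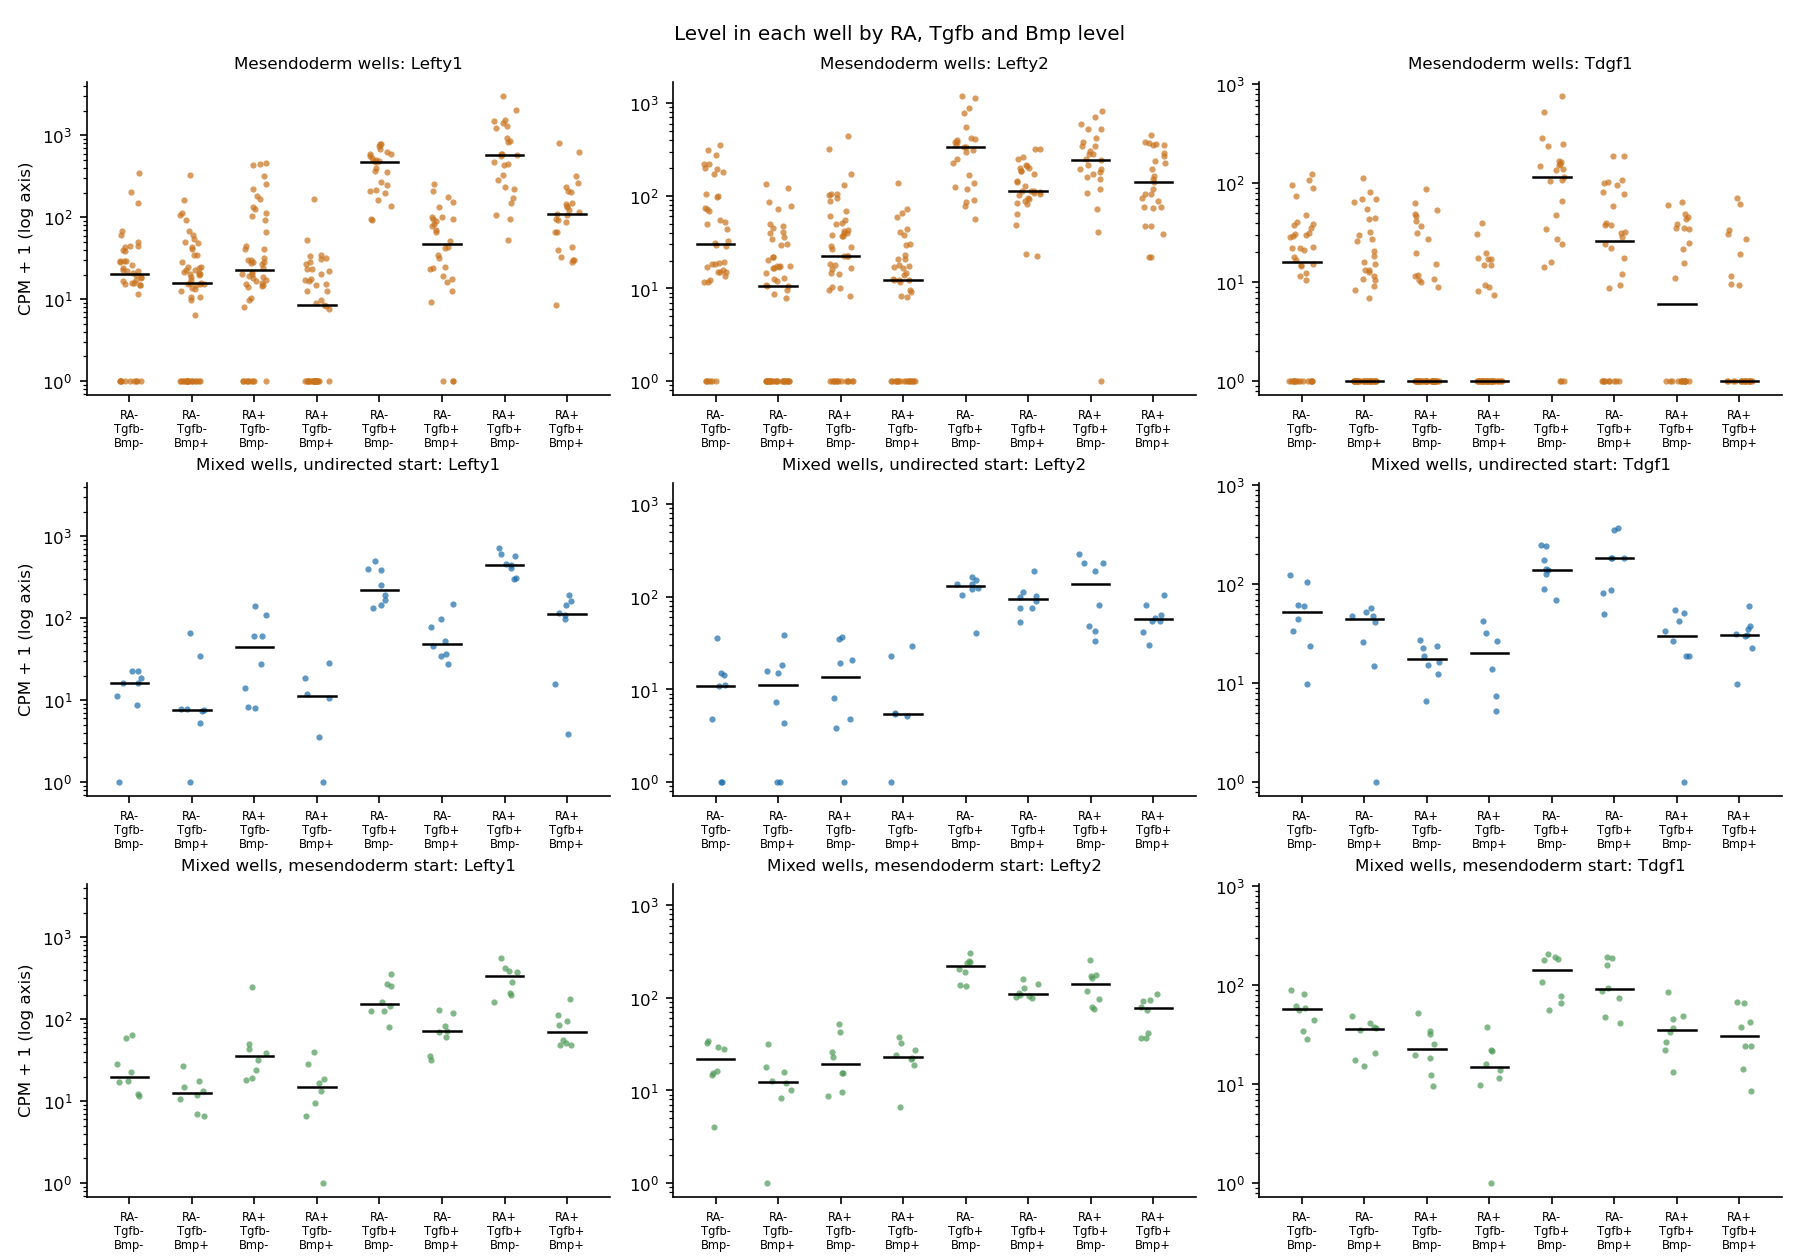
Lefty1, Lefty2 and Tdgf1 per well (columns) in the mesendoderm experiment and in the undirected and mesendoderm starts of the mixed experiment (rows), as CPM + 1 on a log axis, grouped by RA, Tgfb and Bmp level; dots are wells and bars medians. In every row the medians of Lefty1 and Lefty2 are higher over all Tgfb plus than over all Tgfb minus wells. For Lefty1 in the mesendoderm experiment they are 159 and 16.0 CPM. Its Tgfb plus group with RA minus and Bmp plus has a median of 46.7 CPM there.

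The mixed experiment allowed the start state to be compared within 1 library. Nodal, Tdgf1, Lefty1 and Lefty2 rose with Tgfb from both starts. With the undirected start, Lefty2 stood at 29.2, 93.8 and 292 CPM (lowest, median, highest of 32 wells) with Tgfb plus and at 0, 8.47 and 38.0 CPM in 30 wells with Tgfb minus, and 30 of the 32 plus wells lay above every minus well. Lefty1 stood at 2.89, 156 and 716 CPM with plus and at 0, 12.1 and 140 CPM with minus. Nodal stood at 7.64, 20.6 and 57.7 CPM with plus and at 2.82, 12.3 and 33.1 CPM with minus, with more overlap than in the germ layer conditions. The log2 changes were 1.04 ± 0.175 for Nodal, 1.68 ± 0.171 for Tdgf1, 3.08 ± 0.214 for Lefty1 and 3.06 ± 0.216 for Lefty2 (adjusted p = 3.44e-06, 5.46e-15, 2.65e-26 and 7.24e-26), where 4.14% of 8791 genes passed.

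With the mesendoderm start the same 4 genes passed, where 6.96% of genes did. Lefty2 stood at 35.6, 114 and 306 CPM in 32 wells with Tgfb plus and at 0, 17.4 and 51.7 CPM in 32 wells with Tgfb minus, and 29 plus wells lay above every minus well. Lefty1 stood at 30.9, 127 and 558 CPM with plus and at 0, 17.0 and 250 CPM with minus. The changes were 0.90 ± 0.142 for Nodal, 1.26 ± 0.139 for Tdgf1, 2.5002 ± 0.176 for Lefty1 and 2.78 ± 0.158 for Lefty2 (adjusted p = 2.67e-07, 3.31e-13, 3.06e-26 and 2.2e-34). All 8 of these calls held in the 10 alternatives run. Gdf3 changed by 0.14 ± 0.115 with the undirected and 0.27 ± 0.102 with the mesendoderm start (adjusted p = 0.638 and 0.103). It passed with the mesendoderm start in 2 alternatives, without the count filter (adjusted p = 0.027) and with products of the signals (adjusted p = 0.0214). The Tgfb effect differed between starts for none of 8791 genes (0.0%) in edgeR (450 at an unadjusted p under 0.05).

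RA lowered the co-receptor from both starts and by more from the undirected one. With the undirected start, Tdgf1 stood at 0, 24.2 and 58.9 CPM in 30 wells with RA plus and at 0, 74.6 and 372 CPM in 32 wells with RA minus. With the mesendoderm start it stood at 0, 23.3 and 84.2 CPM with plus and at 14.1, 59.95 and 207 CPM with minus. The ranges overlapped in both. Tdgf1 changed by -2.25 ± 0.171 (adjusted p = 1.61e-24; 34.3% of genes passed) and by -1.47 ± 0.138 (adjusted p = 4.84e-18; 30.0% passed). The difference between starts was 0.78 ± 0.228 (adjusted p = 0.0235; 5.68% of genes passed). It was lost in 5 of 10 alternatives, among them each set of barcodelets left out in turn (0.63, adjusted p = 0.32, and 0.96, adjusted p = 0.146). As in the germ layer experiment, pluripotency markers fell with RA (4 and 5 of 6 by start). Their summed median was 800 CPM with RA plus and 1303 CPM with RA minus in undirected wells. Their part in the Tdgf1 change was not tested.

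RA had smaller effects on the other members of the mixed experiment. Gdf3 fell from both starts (-0.42 ± 0.116, adjusted p = 0.00228, and -0.33 ± 0.102, adjusted p = 0.00701), and each call was lost without the wells that carried no external barcodelets. Lefty1 rose from both (0.96 ± 0.193, adjusted p = 2.16e-05, and 0.58 ± 0.166, adjusted p = 0.00366). The second call was lost without the wells with external barcodelets (0.42, adjusted p = 0.100) and with Lefty1 and Lefty2 counts summed (0.14, adjusted p = 0.494). Lefty2 gave no rise that passed. It fell with the mesendoderm start (-0.47 ± 0.145, adjusted p = 0.00701), a call lost in DESeq2 (-0.20, adjusted p = 0.50) and turned to 0.14 when counts of Lefty1 and Lefty2 were summed. Lefty2 did not pass with the undirected start (adjusted p = 0.873), and its difference between starts missed the threshold (-0.52 ± 0.236, adjusted p = 0.191).

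Bmp lowered Lefty1 from both starts of the mixed experiment. The changes were -2.002 ± 0.199 (adjusted p = 1.33e-15; 7.81% of genes passed) and -1.52 ± 0.171 (adjusted p = 7.22e-13; 10.7% passed). Lefty2 fell by less (-0.82 ± 0.187, adjusted p = 0.00127, and -0.78 ± 0.147, adjusted p = 2.4e-05). These Lefty2 calls were lost without the wells that carried no external barcodelets (adjusted p = 0.102 and 0.0747). The undirected call was also lost in DESeq2 and with products of the signals (adjusted p = 0.0718 and 0.19). With the mesendoderm start alone, Nodal (-0.73 ± 0.141, adjusted p = 4.15e-05), Gdf3 (-0.41 ± 0.103, adjusted p = 0.00214) and Tdgf1 (-0.46 ± 0.136, adjusted p = 0.0141) also fell with Bmp. Each of these 3 calls was lost with 1 barcodelet set left out. For Nodal, the difference between starts was -0.61 ± 0.222 and missed the threshold (adjusted p = 0.299; 0.193% of genes passed).

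Wnt lowered Tdgf1 from both starts (-0.82 ± 0.171, adjusted p = 3.61e-05, and -1.09 ± 0.139, adjusted p = 1.71e-11), where 36.1% and 41.1% of genes passed. The first call was lost without the wells that carried no external barcodelets (-0.54, adjusted p = 0.0772). Nodal fell with Wnt with the mesendoderm start (-0.79 ± 0.142, adjusted p = 1.06e-06) and did not pass with the undirected start (adjusted p = 0.412). That difference missed the threshold as well (-0.59 ± 0.231, adjusted p = 0.0995; 7.77% of genes passed). Lefty1 fell by 0.53 and 0.52 (adjusted p = 0.0253 and 0.00669), calls lost in 5 and 4 of 10 alternatives. Fgf raised Tdgf1 (0.66 ± 0.162, adjusted p = 0.00188) and lowered Lefty1 (-0.62 ± 0.189, adjusted p = 0.0157) with the undirected start, where 13.3% of genes passed. Each was lost with 1 barcodelet set left out, and no member passed with Fgf from the mesendoderm start, where 13.6% of genes did. The Fgf effect differed between starts for 1.47% of genes and for no member.

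The highest wells of the mixed experiment again had Tgfb plus, with RA minus for Tdgf1 and RA plus for Lefty1. Tdgf1 was highest in the 2 undirected wells with RA minus, Wnt minus, Tgfb plus, Bmp plus and Fgf plus, at 353 and 372 CPM, next to 242 and 246 CPM with Bmp minus. Lefty1 was highest in the 2 undirected wells with RA plus, Wnt minus, Tgfb plus, Bmp minus and Fgf minus, at 572 and 716 CPM. Over the 8 undirected wells with RA plus, Tgfb plus and Bmp minus, Lefty1 stood at 303, 453 and 716 CPM (lowest, median, highest). With RA minus in its place it stood at 132, 222 and 496 CPM, overlapping the first set. With the mesendoderm start, Lefty2 stood at 75.2, 139 and 255 CPM in the 8 wells with RA plus, Tgfb plus and Bmp minus and at 134, 220 and 306 CPM in the 8 with RA minus, which overlapped with the higher median at RA minus. The product of RA and Tgfb passed for no member in either start, and the share of all genes passing it is not given here. RA by Wnt passed for Lefty2 in both (-1.31 ± 0.34, adjusted p = 0.0119, 3.38% of genes, and -0.88 ± 0.236, adjusted p = 0.0197, 2.5% of genes). Tgfb by Bmp passed for Gdf3 with the mesendoderm start (0.79 ± 0.196, adjusted p = 0.033; 0.287% of genes). Without the wells that carried no external barcodelets, none of these 3 products passed.

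**Figure D4:**
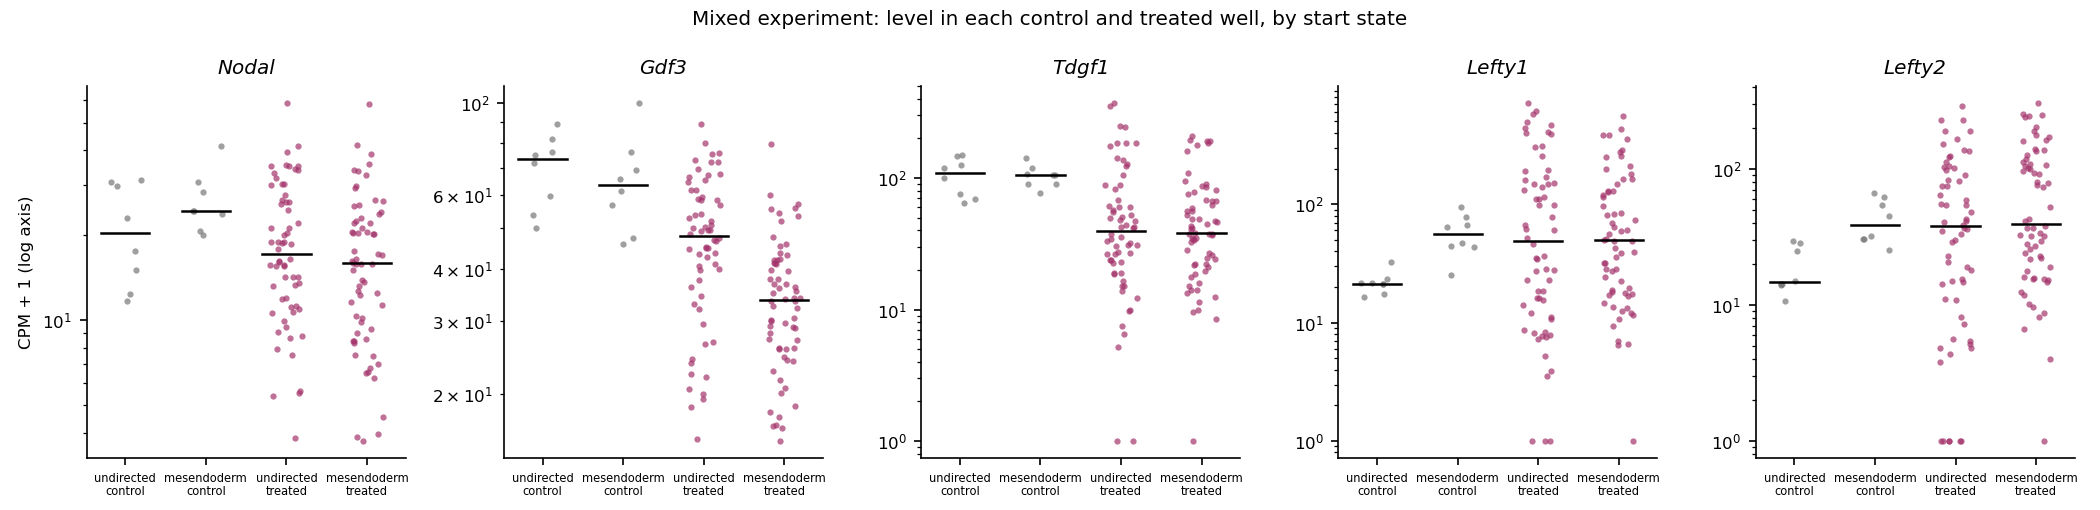
Levels of Nodal, Gdf3, Tdgf1, Lefty1 and Lefty2 in control and treated wells of the undirected and mesendoderm starts of the mixed experiment, as CPM + 1 on a log axis; dots are wells (8 control wells per start, 62 undirected and 64 mesendoderm-start treated wells) and bars medians. Control wells of Tdgf1 lie between 63.4 and 148 CPM, while treated wells run from 0 to 372 CPM.

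Control wells showed the module without combinatorial treatment. In the 8 undirected control wells, Nodal stood at 10.7, 19.3 and 30.4 CPM (lowest, median, highest), Gdf3 at 49.2, 72.4 and 88.2 CPM and Tdgf1 at 63.4, 109 and 148 CPM. In the 8 control wells that had had the mesendoderm treatment, Nodal stood at 19.0, 23.3 and 40.4 CPM, Gdf3 at 44.7, 62.7 and 99.1 CPM and Tdgf1 at 76.0, 105 and 141 CPM. All 3 overlapped between starts. The inhibitors were higher after the mesendoderm treatment. Lefty1 stood at 15.5, 20.4 and 31.7 CPM in undirected and at 24.1, 54.7 and 94.2 CPM in mesendoderm control wells. Lefty2 stood at 9.65, 13.7 and 28.6 CPM and at 24.4, 37.5 and 65.3 CPM. The ranges overlapped slightly. Lefty1 was higher by 1.40 ± 0.398 (adjusted p = 0.0112) and Lefty2 by 1.203 ± 0.359 (adjusted p = 0.0175), where 8.57% of genes passed. With 1 barcodelet set left out, which leaves fewer control wells per start, Lefty1 lost its call in both cases (1.03 and 1.75, adjusted p = 0.275 and 0.0737) and Lefty2 in 1 (0.76, adjusted p = 0.508). Between the same control wells, all 6 primed epiblast markers were lower after the mesendoderm treatment (summed medians 831 and 245 CPM), 7 of 10 naive markers were higher (938 and 1630 CPM), and 2 of 6 tested primitive streak markers were higher (43.4 and 114 CPM). Their part in the Lefty1 and Lefty2 differences was not tested.

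In treated wells, on average over all combinations, Tdgf1 and Gdf3 were lower than in controls with both starts. With the undirected start, Tdgf1 had a median of 38.7 CPM in 62 treated wells against 109 CPM in controls, a change of -1.45 ± 0.187 (adjusted p = 2.13e-10; 19.3% of genes passed). With the mesendoderm start the change was -1.35 ± 0.156 (adjusted p = 2.92e-12; 15.5% passed). Gdf3 changed by -0.60 ± 0.135 (adjusted p = 0.00039) and by -0.96 ± 0.119 (adjusted p = 4.45e-11), the first being lost without the wells that carried no external barcodelets (-0.54, adjusted p = 0.0584). Nodal fell with the mesendoderm start (-0.82 ± 0.167, adjusted p = 9.91e-05). Lefty1 and Lefty2 rose with the undirected start (1.43 ± 0.356, adjusted p = 0.00135, and 0.98 ± 0.332, adjusted p = 0.0253), while their medians with the mesendoderm start were 48.6 and 38.8 CPM in treated and 54.7 and 37.5 CPM in control wells. The Lefty2 call was lost with either barcodelet set left out (0.77 and 1.07). Markers of cell state moved in the same comparisons. With the undirected start all 6 general pluripotency and all 6 primed epiblast markers fell. Their summed medians were 1764 and 831 CPM in control wells and 1027 and 125 CPM in treated wells. With the mesendoderm start 9 of 10 naive markers fell and 1 rose, with summed medians of 1630 CPM in control and 784 CPM in treated wells. There 5 of 6 general pluripotency and 5 of 6 primed epiblast markers fell (1367 to 897 CPM and 245 to 93.3 CPM). Their part in the member changes was not tested. Between treated wells of both starts, Gdf3 was lower after the mesendoderm treatment (-0.46 ± 0.0816, adjusted p = 2.01e-06; 25.6% of genes passed). Lefty2 was higher (0.40 ± 0.159, adjusted p = 0.0495), a call lost in 5 of 10 alternatives, among them the one without the wells that carried no external barcodelets (0.13, adjusted p = 0.759).

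In the bulk libraries of the transfection set, with 2 libraries per group, no member difference passed. None of 15 member effects passed in edgeR, where 4, 3 and 0 of 11631 genes (0.0344%, 0.0258% and 0.0%) passed in the 3 comparisons (305, 626 and 369 at an unadjusted p under 0.05). Nodal read 17.2 and 18.9 CPM in the untransfected libraries, 16.4 and 18.6 CPM after 24 h and 21.8 and 19.1 CPM after 72 h. Tdgf1 read 207 and 160 CPM, 171 and 167 CPM, and 154 and 200 CPM. Tdgf1 overlapped across groups, while both 72 h libraries of Nodal lay above the other 4. Lefty1 read 103 and 69.1 CPM in the untransfected libraries, 64.2 and 76.2 CPM after 24 h and 43.0 and 52.0 CPM after 72 h. Its 72 h libraries lay below both untransfected ones, with a log2 change of -0.86 ± 0.232 and an adjusted p of 0.681. Lefty2 read 159 and 173 CPM in the untransfected libraries, 132 and 107 CPM after 24 h and 137 and 109 CPM after 72 h. All 4 transfected libraries lay below both untransfected ones, and neither comparison passed (adjusted p = 0.923 after 72 h). Gdf3 read 39.7 and 36.7 CPM untransfected, 32.6 and 38.6 CPM after 24 h and 36.1 and 29.8 CPM after 72 h, so that its 72 h libraries also lay below both untransfected ones. The share of all 11631 genes ordered in these ways was not counted. With 2 libraries per group, the orderings are therefore not read as changes of the members. Cer1 was at 0 reads in all 6 libraries.

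In the sorted libraries 3 of 18 member differences passed, for Gdf3 and Lefty1. Foxa2, the gene named in the label of the sort, read 10.7 and 7.64 CPM in the libraries labelled Foxa2GFPminus and 195, 302 and 312 CPM in those labelled Foxa2GFPplus. Tdgf1 went against its label. It read 47.3 and 64.9 CPM in the libraries labelled Tdgf1GFPplus, below the 104 and 143 CPM of Foxa2GFPminus and the 72.5, 66.9 and 84.3 CPM of Foxa2GFPplus. The name is therefore used only as a label.

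Gdf3 was low in the Foxa2GFPplus libraries, at 3.88, 1.24 and 3.799 CPM. It read 24.1 and 25.1 CPM in Foxa2GFPminus. The libraries labelled Tdgf1GFPplus were at 77.3 and 53.7 CPM, so that the 3 groups did not overlap. How many of all 13654 genes separated likewise was not counted, here or for Nodal and Lefty1 below. Foxa2GFPplus lay below Foxa2GFPminus by -3.09 ± 0.459 (adjusted p = 0.00587; 2.39% of 13654 genes passed), a call lost without Foxa2GFPminus replicate 2 (-3.05, adjusted p = 0.0934). It lay below the libraries labelled Tdgf1GFPplus by -4.50 ± 0.462 (adjusted p = 0.000382; 10.2% of genes passed), a call held in all 13 alternatives. Nodal read 6.51 and 7.27 CPM in Foxa2GFPminus, and 10.3, 13.2 and 16.3 CPM in Foxa2GFPplus. The libraries labelled Tdgf1GFPplus were at 34.7 and 25.0 CPM. These groups did not overlap either, but no Nodal difference passed (Foxa2GFPplus less Tdgf1GFPplus: -1.16 ± 0.356, adjusted p = 0.0619). The last passed without Foxa2GFPplus replicate 1 (-1.03, adjusted p = 0.0322) and in DESeq2 (adjusted p = 0.0437).

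Of the inhibitors, Lefty1 was highest in Foxa2GFPplus. Lefty1 read 62.5, 131 and 145 CPM there, and 25.7 and 34.2 CPM in Foxa2GFPminus. Its values under the label Tdgf1GFPplus were 49.0 and 13.5 CPM. The Foxa2GFPplus libraries lay above both other groups. The difference from the libraries labelled Tdgf1GFPplus was 1.85 ± 0.521 (adjusted p = 0.0459). It was lost without Foxa2GFPminus replicate 1 or 2, Foxa2GFPplus replicate 3 or 4, or Tdgf1GFPplus replicate 2 (1.21 to 1.86). The difference was 0.77 with the replicate number as a block. In that fit Foxa2GFPplus replicates 3 and 4 share their number with no other sorted library, so replicate 1 alone carries the group. The difference was 3.07 without Tdgf1GFPplus replicate 1. The difference from Foxa2GFPminus was 1.92 ± 0.530 and missed the threshold (adjusted p = 0.0822). It passed without Foxa2GFPplus replicate 1 (2.18, adjusted p = 0.00118) and in DESeq2 (adjusted p = 0.00767). Lefty2 read 124, 222 and 219 CPM in Foxa2GFPplus and 125 and 78.6 CPM in Foxa2GFPminus, which overlapped. Cer1 read 0.17, 1.05 and 2.19 CPM in Foxa2GFPplus, 0.38 and 0 CPM in Foxa2GFPminus and 6.40 and 0 CPM under the label Tdgf1GFPplus. No member difference passed between the libraries labelled Tdgf1GFPplus and Foxa2GFPminus, although Nodal and Gdf3 did not overlap there. In this comparison edgeR called none of 13654 genes (0.0%; 1321 at an unadjusted p under 0.05).

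The sorted libraries differed in cell state and in composition. Summed naive pluripotency markers read 78 to 127 CPM in Foxa2GFPplus, 499 and 611 CPM in Foxa2GFPminus and 870 and 1256 CPM under the label Tdgf1GFPplus, and 8 of 10 fell in Foxa2GFPplus against Foxa2GFPminus. Summed primitive streak markers read 690 to 725 CPM in Foxa2GFPplus against 204 to 279 CPM in the rest. The part of these differences in the Gdf3 and Lefty1 values was not tested. The gene model Gm42418 took 111470 to 567724 CPM of each sorted library. Leaving it out gave -3.09, -4.50 and 1.85 for the 3 called differences.

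**Figure D5:**
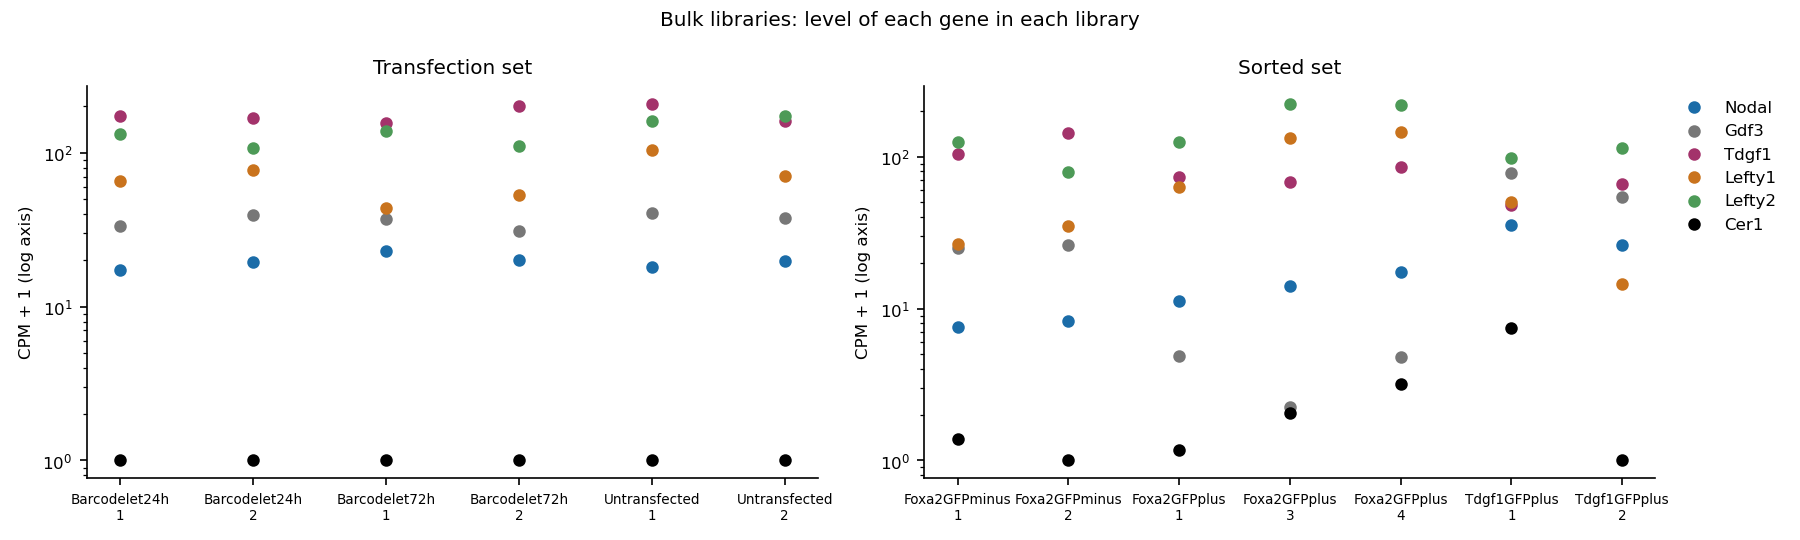
Levels of the 6 genes in each bulk library, as CPM + 1 on a log axis, for the transfection set (6 libraries) and the sorted set (7 libraries); each point is 1 library. Gdf3 lies between 1.24 and 3.88 CPM in the 3 Foxa2GFPplus libraries and at 24.1 CPM or more in every other sorted library.

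The rest of the Nodal pathway was read from 36 further genes in 6 lists. In the germ layer experiment, 11 of 27 tested genes rose with Tgfb and none fell, where 4.07% of all genes rose, with a median log2 change of 0.24 against -0.01 over all genes. The target genes gave 6 of 9, among them Eomes (2.07 ± 0.236), a primitive streak factor. The pathway inhibitors gave 5 of 7, among them Skil (0.81 ± 0.0583), a Smad corepressor, and Pmepa1 (1.83 ± 0.169), which sequesters Smads. None of 4 tested receptors and none of 3 tested Smad and Foxh1 genes passed. The adjusted p-values of Eomes, Skil and Pmepa1 were 1.13e-07, 2.51e-12 and 1.04e-09. In the mesendoderm experiment 5 of 8 rose and none fell, where 10.1% of all genes passed, and Mixl1 rose by 1.09 ± 0.112. In the mixed experiment 9 of 24 rose and 1 fell with the undirected start, and 11 of 24 rose and none fell with the mesendoderm start (4.14% and 6.96% of all genes passed), Pmepa1 by 1.77 ± 0.134 and 1.67 ± 0.104.

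With the other signals the pathway genes moved both ways. With RA 5 rose and 11 fell of 27 in the germ layer experiment, where 27.7% of all genes passed, Eomes by -2.54 ± 0.233 and Fgf5 by -2.35 ± 0.293, while the corepressor Ski rose by 0.87 ± 0.0675. With Bmp 9 rose and 9 fell, where 43.1% of all genes passed. The rises included Smad7 (1.504 ± 0.0842), an inhibitory Smad, and Bambi (2.56 ± 0.159), a decoy receptor, and the falls included Fst (-1.56 ± 0.221), which binds Activin. With Wnt 6 rose and 1 fell, a share near the 23.9% of all genes that passed, Lhx1 by 2.07 ± 0.341 and T by 1.67 ± 0.314, and with Fgf 3 rose and 2 fell, where 7.93% of all genes passed, Tgfb1 by 1.42 ± 0.158. In the sorted libraries 7 of 29 rose and 1 fell in Foxa2GFPplus against Foxa2GFPminus, where 2.39% of all genes passed. They included Sox17 (5.21 ± 0.880), an endoderm factor, and Fgf8 (2.85 ± 0.552). Against the libraries labelled Tdgf1GFPplus 13 rose and 1 fell, where 10.2% of all genes passed. The lists hold Foxa2, the gene named in the sort label, so any rise of Foxa2 in either comparison was set by the sort. Cfc1, the other EGF-CFC co-receptor, rose by 3.04 ± 0.4928, and Pcsk6, a protease that processes the ligands, fell by 3.77 on the log2 scale.

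Profiles across populations placed the members beside different genes. Over the 32 germ layer conditions, the genes most correlated with Tdgf1 included Eomes (r = 0.93), Rrn3 (0.86) and Fgf5 (0.85) among 7465 genes, and over the 142 mixed wells they were Platr10 (0.78), Pou5f1 (0.76) and L1td1 (0.76) among 7308 genes. For Gdf3 they included Fgfbp1 (0.89) and Bcat2 (0.79), and in the mixed wells Rbmxl2 (0.67), Sox2 (0.67) and Socs2 (0.63). For Lefty1 they included Itpk1 (0.80) and Lefty2 (0.79), and in the mixed wells Lefty2 (0.77). For Lefty2 they included Nodal (0.85) and Trh (0.82), and in the mixed wells Lefty1 (0.77). For Nodal they included Gnaz (0.89) and Lgr4 (0.89), and in the mixed wells Dppa5a (0.55) and Lefty2 (0.49). The populations of an experiment share a library and differ in depth, and these values are descriptive.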

How the data were processed

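Single-cell RNA was captured on the 10X Chromium platform and bulk RNA with a Lexogen QuantSeq 3′ kit, per the labels' protocols. The deposited matrices hold raw UMI counts per gene and called cell, and for bulk libraries a deposited table gives raw counts of reads for each gene. Cell Ranger 1.3.1, STAR 2.5.2b, HTSeq 0.9.1 and mm10 are named, with no role or order, in the submitters' processing notes. The deposited assignment tables give each cell's barcodelet count, the fraction of it in its leading barcodelets and whether the cell passed. Cells that passed were summed per population, keeping wells with at least 5 cells. No doublet caller was run, and doublets of cells from the same well, which carry the same barcodelets, were not removed. Bulk identifiers were named from a table of Ensembl gene names, and the 1666 without a symbol stayed in the tests by identifier.

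Counts were filtered by expression, TMM-scaled and fitted in edgeR 4.0.16 (R 4.3.3) with all signals in 1 quasi-likelihood model, and p-values were Benjamini-Hochberg adjusted over all genes tested, with a threshold of 0.05. Signals were coded so that an effect is an average over the others, and products of signal pairs came from a second model. DESeq2 1.42.0 was an alternative. Bulk sets were fitted separately, without a block, because the labels do not say that a replicate number marks a shared culture or day. Deviations of libraries sharing a replicate number correlated at -0.16 to 0.11. With so few libraries per group, these values cannot tell whether the numbers mark pairs. The model was tested on simulated data. Likeness used log2(CPM + 5) of genes averaging at least 10 CPM. All 6 members were named in every comparison, with up to 4 further pathway genes of smallest adjusted p, and the 3 most correlated genes per member; some of these genes are not reported here. Members and lists were chosen with earlier results of these data known. Foxa2GFPplus replicate 2 was not analysed here. Gene positions come from GENCODE vM21.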

Additional observations from a re-analysis of the deposited data

Results flagged for a closer look

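The RA effect on Tdgf1 differed between the starts of the mixed experiment by 0.78 on the log2 scale, by a test of the difference itself, and the difference was lost in 5 of 10 alternatives. Among the 8 undirected control wells, the highest Lefty1 well (31.7 CPM) stood apart from the rest by Dixon's ratio. It was 1 of 10 control-well groups to do so, and chance alone gives about 1 in 20.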

How the results depend on the processing

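Over 82 called member effects, 747 refits kept the direction and the call in 657 cases, lost the call in 89 and turned the sign in 1, and 35 effects lost their call at least once. The Tgfb calls on Nodal, Tdgf1, Lefty1 and Lefty2 were never lost where they were tested. Summing Lefty1 and Lefty2 turned the RA effect on Lefty2 to 0.14 (mixed experiment, mesendoderm start) and 0.13 (mesendoderm experiment), by construction. The Tgfb effect on Gdf3 from the undirected start became -0.0022 without the wells with external barcodelets and 0.32 without the others, and the cause was not tested.

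Without the count filter, 17 mesendoderm effects were called in place of 7, 7 differences between starts in place of 1 and 5 sorted-library differences in place of 3, with more genes tested. Of 3 mesendoderm products, 1 was called by DESeq2 and 1 from wells with at least 10 cells. The single difference between starts fell to 0 without the 10% of cells with most UMIs, with pairwise products and in DESeq2. DESeq2 called 6 sorted-library differences and 1 fit of all bulk libraries called 7. The causes were not tested.

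Leaving out 1 barcodelet set, an alternative chosen after seeing the data, gave 19 to 26 mixed effects in place of 31, 0 differences between starts, 6 to 9 start and control differences in place of 11, and 0 to 4 products in place of 3, with fewer wells. Leaving out 1 sorted library gave 1 (without Foxa2GFPminus replicate 2) to 9 (without Foxa2GFPplus replicate 1) calls. With the replicate number as a block, the counts were 7 effects and 3 products in the mesendoderm experiment and 0 for transfection. No count is given for the sorted libraries, where such a block leaves 1 Foxa2GFPplus library in the comparison. With the barcodelet set as the block, the counts were 31, 1, 11 and 3 in the mixed experiment. The unfiltered pairwise models of the mesendoderm and mixed experiments were not run. Depth limits Nodal, Gdf3 and Cer1 in the mesendoderm wells, which were tested only without the count filter.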

Other observations

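Genes near the members were looked at after their values were seen. Tmem63a, 3943 bases from Lefty1, rose with Tgfb by 1.38 ± 0.165 in the germ layer experiment (adjusted p = 3.39e-07, edgeR). In the same comparison Sde2, 24994 bases from Lefty2, changed by 0.06 (adjusted p = 0.596), and Eif4ebp2, 3152 bases from Nodal, by 0.03 (adjusted p = 0.905). The cause was not tested.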
